A study of Xenopus tropicalis with 2 samples.

Results

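The first 12 Mb of chromosome 7 of Xenopus tropicalis, the chromosome end said to hold the sex-determining region of this frog, were examined in a deposited set of genome occupancy peaks. A peak was a member when it lay on chromosome 7 and started at base 12000000 or below. This held for 1295 of the 124349 peaks in all, and for 16.1% of the 8026 peaks of chromosome 7. The last member started at base 11998987 and the first peak outside at 12004897. They had 6 sorted and 13 unsorted reads, and 15 sorted and 9 unsorted reads.

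Both libraries were made from genomic DNA of tadpole tails that were labelled 0 hours post amputation, with the amputation set at Nieuwkoop and Faber stage 41. Cells were freed from the tissue with Liberase, a blend of enzymes. In 1 library the cells had passed through a fluorescence-activated cell sorter, and in the other they had not been sorted. Both libraries were labelled wild type, the labels name no transgene, and the gated population, the number of animals and their sex are not named there. The sorted library held 3111092 reads in peaks and the unsorted library 3176954. With 1 library in each group no difference between them could be set against a spread between preparations, so no test was run and intervals cover counting error only. The reads carried no stated molecular identifiers, so they may not stand for independent molecules. Each library pooled many cells, so a change in the mix of cells and a change of occupancy within cells cannot be told apart.

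As background, sex in this species is set by a locus near 1 tip of chromosome 7, and Y, W and Z forms of that chromosome occur in the species. These forms look alike under the microscope and recombine along most of their length, unlike the strongly degenerated Y chromosome of mammals. In frogs, recombination is concentrated towards the chromosome ends. An occupancy peak is a short stretch where sequenced fragments pile up, which occurs at promoters, enhancers and other sites bound by protein or open to enzymes, and in some cases at repeats. Whether the base count of the deposited table runs from the tip that holds the locus was not checked here, because neither the labels nor the file header name the genome build. The last peak of chromosome 7 ended at base 117244424, whereas a gene of chromosome 7 in assembly UCB_Xtro_10.0 ended at base 133556246. The builds were treated as different, so no member was assigned to a gene and no sequence is shown. Positions are given as deposited.

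Peaks were dense at this end and became fewer inwards, with most of the drop over the first 3 Mb. Its density was 107.9 peaks per Mb, with an exact Poisson interval of 102.1 to 114.0. The last 12 Mb of chromosome 7, counted back from its last peak, held 1158 peaks or 96.5 per Mb (91.0 to 102.2). The 93.2 Mb between them held 59.8 peaks per Mb. Of the 9 full windows of 12 Mb along chromosome 7, this end was the densest, and the other 8 ranged from 52.0 to 72.2 peaks per Mb. Against the same first 12 Mb of other chromosomes it was sparse as a whole. Of 8 such ends it ranked the seventh, above chromosome 3 with 105.0 peaks per Mb, whose interval of 99.3 to 111.0 overlapped its own. The 5 densest, chromosomes 1, 2, 4, 5 and 8, held between 122.0 and 131.8 peaks per Mb, and chromosome 6 held 117.0 (111.0 to 123.3).

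Along the 1 Mb bins, counted inwards from base 1, the outermost bin held 207 peaks and the next bin 157. The third bin held 83 peaks, fewer than the third bin of each of the 7 other first ends, which ranged from 114 to 171. Bins 4 to 8 held between 96 and 116 peaks. The ninth bin held 68, the fewest of the 12, with an exact Poisson interval of 52.8 to 86.2. The 7 other ends held 71 to 140 there, so the count was below their range but its interval reached into it. Bins 10, 11 and 12 held 78, 92 and 94 peaks. In 10 of the 12 bins this end held fewer peaks than the median of the other 7, and in none did it exceed their highest value. It held more peaks than the bin at the same distance from the last peak of chromosome 7 in 9 of 12 bins.

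**Figure D1:**
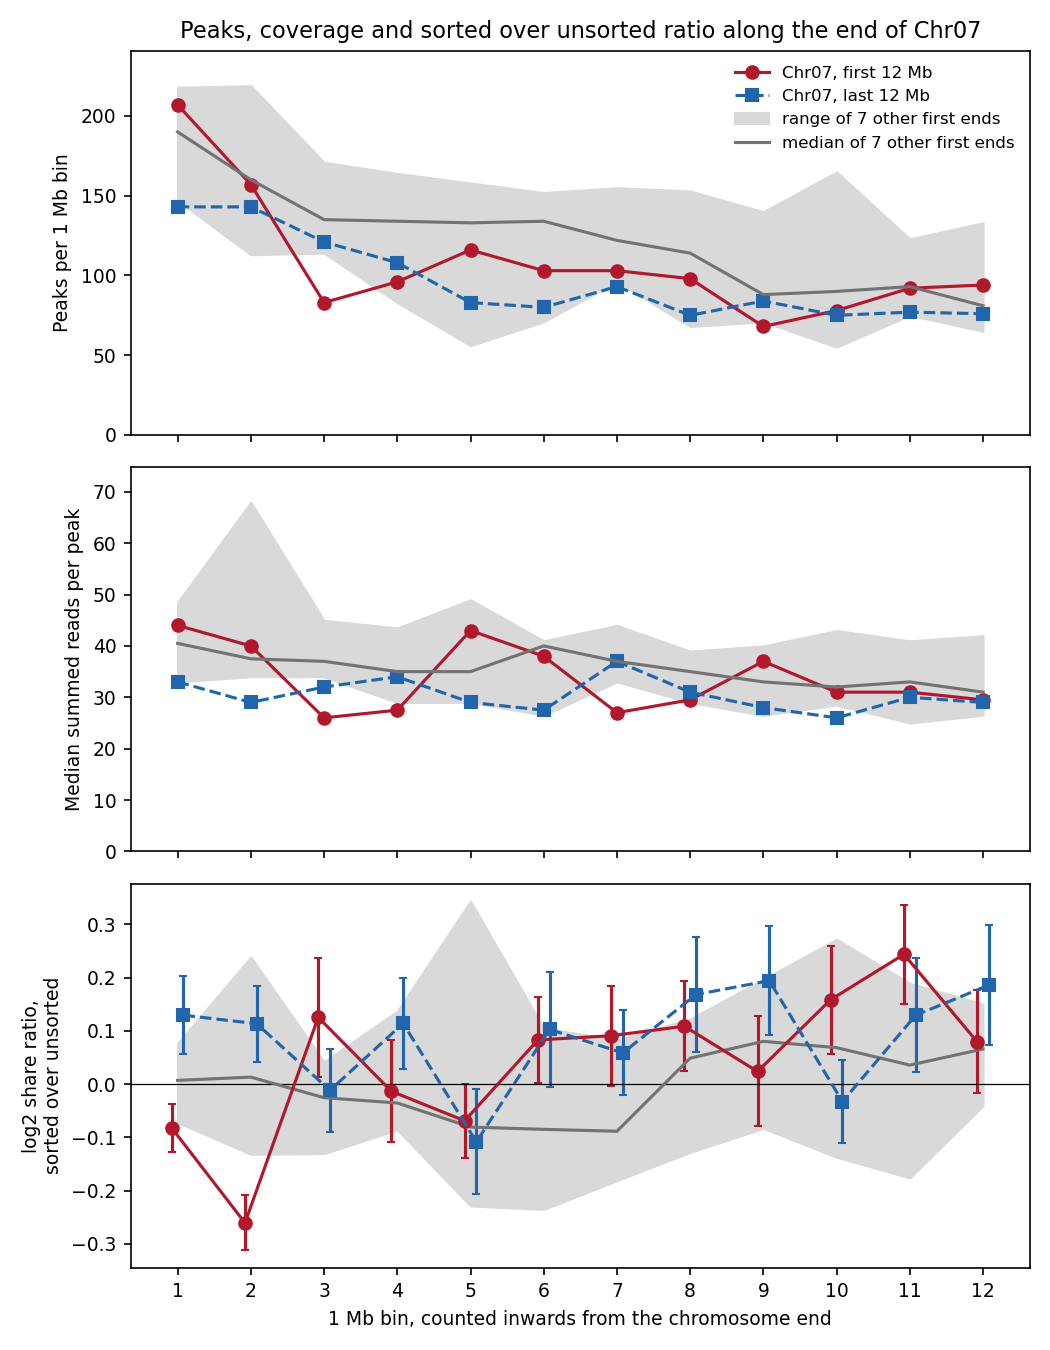
Peaks per bin (top), median summed reads per peak in both libraries (middle) and log2 share ratio of sorted over unsorted reads with 95% Clopper-Pearson intervals (bottom), in 1 Mb bins counted inwards from the chromosome end. Red circles show the first 12 Mb of chromosome 7 and blue squares its last 12 Mb; the grey band and line are the range and the median of the first 12 Mb of the 7 other chromosomes. The red line is at 207 peaks in bin 1 and at 83 in bin 3, and the ratio is lowest in bin 2, at -0.26.

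The spacing of members widened over the first 3 bins but did not follow the peak counts of all bins. The median distance between neighbouring starts was 3118 bp in the first bin, 3696 bp in the second and 5978 bp in the third. The fourth bin held more peaks than the third but had a wider median distance, 7993 bp. The tenth bin had the widest, 10431 bp, although the ninth held fewer peaks. The ninth bin had a median distance of 9586 bp and held the longest stretch without a peak, 172530 bp, between the peaks that ended at 8726840 and started at 8899371. Among the 8 first ends this was the longest, ahead of 159987 bp on chromosome 3; the last 12 Mb of chromosome 7 had at most 84399 bp. No window of 100 kb was empty, and 2 of the 120 held 2 peaks or fewer. The fullest window, from 400001 to 500000, held 30 peaks.

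Members were somewhat more scattered than peaks of the 7 other first ends and less scattered than peaks of the last 12 Mb of chromosome 7. The median distance between neighbouring starts was 6348 bp, against 7122 bp in the last 12 Mb of chromosome 7. In the 7 other first ends it ranged from 4942 bp on chromosome 8 to 6106 bp on chromosome 3. Of the distances between neighbours, 14.4% were under 1 kb, the lowest share of the 8 first ends, although the range of the other 7 was narrow, from 14.9% to 17.6%. In the last 12 Mb of chromosome 7 the share was 12.1%. Only 18 pairs of members overlapped, so reads shared between members touch few values; the other 7 first ends had between 22 and 28 such pairs.

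Median coverage was higher over the outermost 2 Mb, at 42 summed reads, than over the following 10 Mb, at 30, but single bins did not follow density. The sparsest bin, the ninth with 68 peaks, had a median of 37 summed reads, and the fifth had 43, above the 40 of the second. The median member had 17 reads in the sorted and 17 in the unsorted library, or 33 summed reads (order-statistic interval 32 to 35). Sorted reads ran from 3 to 953 and unsorted reads from 1 to 1507, and no member was without reads in either library. The median was 31 summed reads (30 to 32) in the last 12 Mb of chromosome 7 and 25 in the middle of that chromosome. The median of this end was the lowest of the 8 first ends, where the other 7 ranged from 34 on chromosomes 3 and 6 to 41 on chromosome 8. The intervals of chromosomes 3 (33 to 35) and 6 (33 to 36) overlapped its own, and those of chromosomes 1 and 4 began at its upper bound of 35. In the outermost 2 Mb alone the median ranked the third of 8. The mean of the whole end, which a few heavily covered peaks raise, was 52.5 summed reads and ranked the fourth of 8.

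In the first bin the median member had 44 summed reads and in the second 40. The third bin had a median of 26 and the fourth of 27.5, both below the range of the other 7 ends, which began at 34 and 29. The fifth bin held a local high of 43, and bins 6 to 12 ranged from 27 to 38. The seventh bin, at 27, also lay below the range of the other ends, which began at 33.

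Well covered members were concentrated at the tip. Of the 1295 members, 89 (6.87%) had at least 100 summed reads, against 4.49% in the last 12 Mb of chromosome 7 and 9.13% in the 7 other first ends. In the outermost 2 Mb, a limit set after the values were seen, 49 of 364 members (13.5%) reached 100 reads, but only 40 of the 931 members beyond it (4.30%). In the 7 other first ends pooled the shares were 11.4% and 8.44%. Chromosome 7 ranked the second of 8 in the outermost 2 Mb, below chromosome 8 with 20.4%, and the lowest of 8 beyond. The outermost 2 Mb of chromosome 7 held 28.1% of the members, with 39.7% of the sorted and 43.6% of the unsorted reads of the end. In the 7 other first ends the same stretch took between 17.1% and 37.0% of the sorted and between 15.7% and 38.7% of the unsorted reads, so chromosome 7 lay above all of them in both libraries. The 2 most covered members lay there, with 890 and 953 sorted and 1507 and 1418 unsorted reads. Whether the rank holds without them was not tested. Per Mb, the outermost 2 Mb took 2128 sorted and 2377 unsorted CPM (counts scaled to a common total of reads in peaks), and the following 10 Mb took 647 sorted and 616 unsorted CPM. On the other 7 ends, those 10 Mb took between 648 and 1123 sorted CPM per Mb.

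The end as a whole took nearly the same share of both libraries, 1.07% of the sorted and 1.09% of the unsorted reads. Its 33365 sorted and 34663 unsorted reads gave a log2 share ratio, the log2 of the sorted over the unsorted share, of -0.025 (-0.047 to -0.0031). The last 12 Mb of chromosome 7 had 25528 sorted and 24692 unsorted reads and a ratio of 0.078 (0.053 to 0.10). The middle of the chromosome stood at 0.18 (0.17 to 0.19), and each of the other 8 full windows of 12 Mb lay between 0.084 and 0.22. The difference of this end from the last 12 Mb was -0.10 (Wald interval -0.14 to -0.070), and from the middle -0.20 (-0.23 to -0.18). Within 6 classes of coverage the differences were -0.077 and -0.14. Without the 10 most covered peaks of each region, the difference from the last 12 Mb was -0.063 (-0.099 to -0.027).

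Against other first ends the pooled ratio of this end was ordinary. The 7 others together had -0.032 (-0.040 to -0.024), a difference of 0.0072 (-0.016 to 0.030). Without the 10 most covered peaks of each end it was 0.046 (0.021 to 0.071). The 7 others ranged from -0.077 on chromosome 8 to 0.0079 on chromosome 6. Chromosome 7 ranked the fourth of 8. The sign of its own ratio depended on the 10 most covered members, without which it was 0.044 (0.020 to 0.067), and on the scaling, since scaling by the 5000 most covered peaks gave 0.13. The shares given here are of library totals, so their ratio is tied to that scaling. Differences between regions stay the same under any scaling that shifts every log2 ratio by the same constant.

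That ordinary total joined unlike parts, and bins on both sides of 0 were found at other first ends too. On chromosome 8 the bins spanned more, from -0.24 to 0.34, and on chromosome 2 less, from -0.12 to 0.11. The second bin of chromosome 7 had 5503 sorted and 6733 unsorted reads, a log2 share ratio of -0.26 (-0.31 to -0.21). The first bin had 7740 sorted and 8370 unsorted reads, a ratio of -0.083 (-0.13 to -0.038). Both were below the same bin of each of the 7 other ends, where the lowest values were -0.13 in the second and -0.072 in the first bin. The latter, on chromosome 1, had an interval of -0.14 to -0.0065, which overlapped that of chromosome 7. The third bin, with 1364 sorted and 1277 unsorted reads, had a ratio of 0.13 (0.014 to 0.24). The fourth had -0.014 (-0.11 to 0.082), and the fifth, with 3286 sorted and 3520 unsorted reads, -0.069.

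From the sixth bin inwards every ratio was above 0, from 0.024 in the ninth bin to 0.24 in the eleventh. The eleventh had 2021 sorted and 1743 unsorted reads (interval 0.15 to 0.34), and the tenth had 1657 sorted and 1516 unsorted reads and a ratio of 0.16 (0.057 to 0.26). In all, 5 bins had an interval above 0, 3 below 0 and 4 included it. The fifth bin counted as below with an upper bound that rounded to 0. The ratio lay above the highest of the 7 other ends in bins 3, 7 and 11. In each of these bins its interval overlapped that of the highest other end. In bin 7 the values were 0.091 (-0.0028 to 0.18) and 0.083. Some end has to be the highest in every bin, so these ranks are descriptions only. The other scalings shift all bins by 1 constant each, from -0.067 with TMM factors to 0.16 with the 5000 most covered peaks, so that their level against 0 but not their order depends on the scaling.

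The 2 Mb limit was set after the values were seen, at the point where the bins of chromosome 7 first turn from below to above 0. Such a limit favours a wide gap on chromosome 7, so the ranks given here are descriptions only. The outermost 2 Mb had 13243 sorted and 15103 unsorted reads and a log2 share ratio of -0.16 (-0.19 to -0.13). The following 10 Mb had 20122 sorted and 19560 unsorted reads and 0.071 (0.043 to 0.100). The first value was the lowest of the 8 first ends, where the others ran from -0.079 to 0.088. The second was the highest of the 8, where the others ran from -0.085 to 0.024. The difference between the stretches was -0.23 (-0.27 to -0.19) on chromosome 7. It was 0.014 (-0.0034 to 0.031) over the other 7 ends pooled, and ranged from -0.10 on chromosome 3 to 0.14 on chromosome 4. At the opposite tip of chromosome 7 the outermost 2 Mb had 0.12 (0.070 to 0.17), and the next 10 Mb had 0.064 (0.035 to 0.093). Beyond the outermost 2 Mb the ends of chromosome 7 thus differed by 0.0070 (-0.034 to 0.048).

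**Figure D2:**
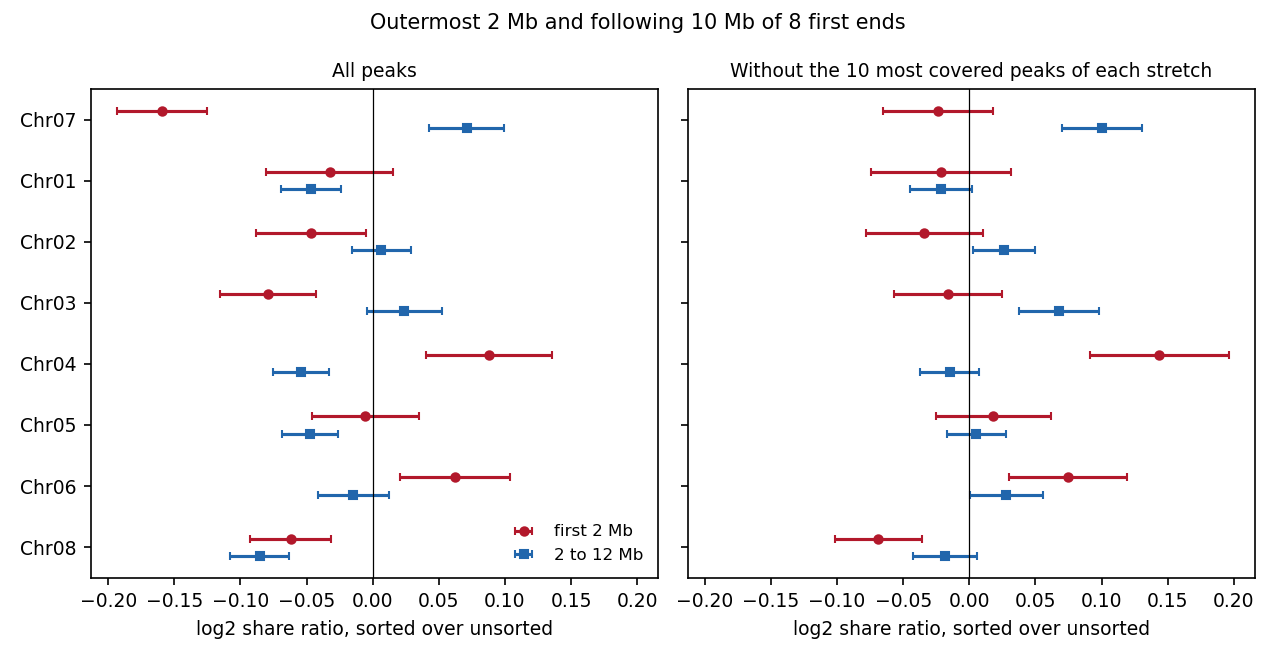
Log2 share ratio of sorted over unsorted reads in the outermost 2 Mb (red circles) and in the following 10 Mb (blue squares) of the first ends of 8 chromosomes, with all peaks (left) and without the 10 most covered peaks of each stretch (right). Bars are 95% Clopper-Pearson intervals. Chromosome 7 spans -0.16 to 0.071 on the left and -0.024 to 0.10 on the right. The 2 Mb limit was set after the values of chromosome 7 were seen.

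Much of the low ratio at the tip came from few members. Without the 10 most covered peaks of each stretch, a comparison added after the data were seen, the outermost 2 Mb of chromosome 7 had -0.024 (-0.065 to 0.018) and the following 10 Mb 0.10 (0.070 to 0.13). The difference was then -0.12 (-0.17 to -0.073), still the lowest of the 8 first ends, with an interval that overlapped those of chromosome 3, at -0.084 (-0.13 to -0.033), chromosome 2, at -0.060 (-0.11 to -0.011), and chromosome 8, at -0.050 (-0.091 to -0.0095). The median log2 ratio per peak, over members with at least 20 summed reads, was -0.00088 in the outermost 2 Mb and 0.10 beyond. Within classes of coverage the difference between the stretches was -0.13.

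The ratio was lowest in the class with the most reads. The 27 members with at least 200 summed reads had 6571 sorted and 8468 unsorted reads and a log2 share ratio of -0.34 (-0.38 to -0.29). The 62 members with at least 100 and under 200 reads had 0.0022 (-0.061 to 0.065). The classes below ran from 0.051 to 0.14, with 0.14 (0.033 to 0.26) for the 161 members under 20 reads. The 7 other first ends had -0.31 (-0.33 to -0.29) in their top class, a value that the interval of chromosome 7 included, and the last 12 Mb of chromosome 7 had -0.085 (-0.15 to -0.017). In the outermost 2 Mb 16 members in the top class had -0.40 (-0.45 to -0.35), and 11 members beyond had -0.16 (-0.25 to -0.076). In the outermost 2 Mb each of the 5 lower classes had an interval that included 0, with ratios from -0.051 to 0.022.

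**Figure D3:**
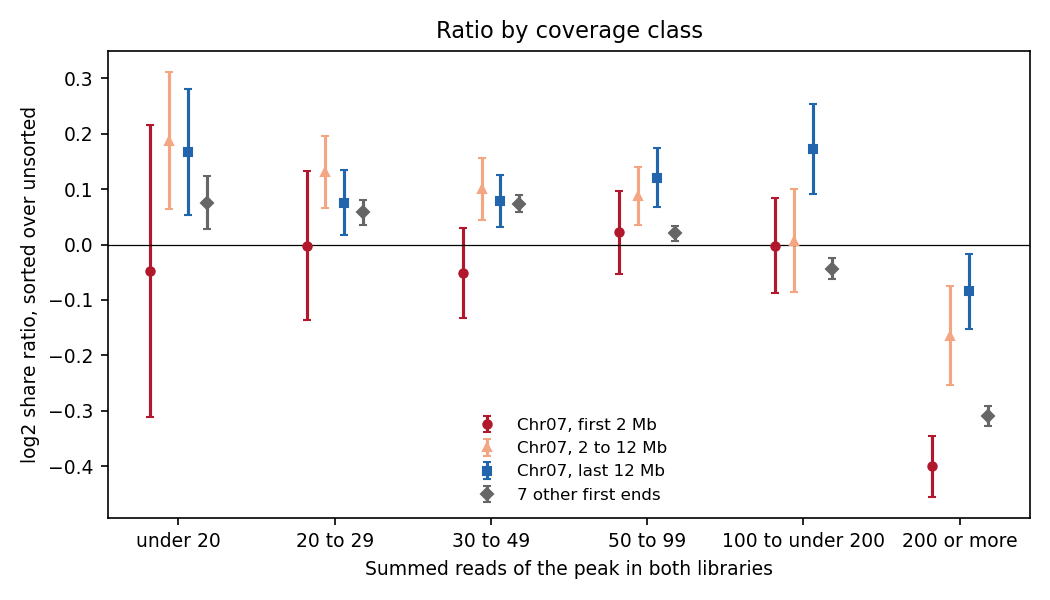
Log2 share ratio of sorted over unsorted reads by class of summed reads per peak, for the outermost 2 Mb of chromosome 7, its following 10 Mb, its last 12 Mb and the first ends of 7 other chromosomes. Bars are 95% Clopper-Pearson intervals. The class of 200 or more reads is the lowest in each set, at -0.40, -0.16, -0.085 and -0.31 in the order given.

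When scaled by library totals, the most covered members were mostly lower in the sorted library. The peak with the most reads lay at 1779719 to 1780118, with 890 sorted and 1507 unsorted reads, which ranked the twelfth among chromosome peaks. Its log2 ratio was -0.73 (-0.85 to -0.61), a level 1.66-fold lower in the sorted library. The peak at 937505 to 937904 had 953 sorted and 1418 unsorted reads (-0.54, -0.66 to -0.42). The third most covered, at 663483 to 663882, had 769 sorted and 787 unsorted reads and an interval that included 0 (-0.0031, -0.15 to 0.14). The same held for the peak at 7992543 to 7992942 in the eighth bin, with 516 sorted and 504 unsorted reads (0.064, -0.12 to 0.24).

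Among the remaining 6 of the 10 most covered members, the peak at 1701750 to 1702149 had 245 sorted and 356 unsorted reads (-0.51, -0.75 to -0.27). The peak at 1732464 to 1732863 had 236 sorted and 333 unsorted reads (-0.47, -0.71 to -0.22), and that at 1682548 to 1682947 had 192 and 268 in the same order (-0.45, -0.73 to -0.18). These 3 lay within 100 kb of the most covered member. The peaks starting at 870493, 4796507 and 5284426 had log2 ratios of -0.29, -0.38 and -0.23, the last with an interval that reached 0.013. Of the 10 members, 7 lay in the outermost 2 Mb. Scaled by library totals, 7 had an interval below 0 and none had one above 0. Those 2 counts depend on the scaling, since the other scalings shift every log2 ratio by a constant, from -0.067 to 0.16. Together the 10 members took 13.6% of the sorted and 17.6% of the unsorted reads of the end (log2 share ratio -0.40, -0.45 to -0.34).

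The neighbours of these members lay on both sides of 0. Around the peak at 937505, the 15 other peaks within 50 kb had a pooled ratio of 0.064 (-0.087 to 0.21), with 8 of them above 0. Around the peak at 1779719, the 21 others had -0.19 (-0.33 to -0.047), with 11 above 0. The stretch from 1682548 to 1780118, chosen after its values were seen, runs from the first to the last member with at least 200 reads within 100 kb of the most covered one. It held 19 members with 2004 sorted and 2961 unsorted reads (-0.53, -0.62 to -0.45). Without its most covered peak the ratio was -0.35 (-0.47 to -0.24). Of the 19 members, 9 were above 0, and 5 had at least 200 reads.

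**Figure D4:**
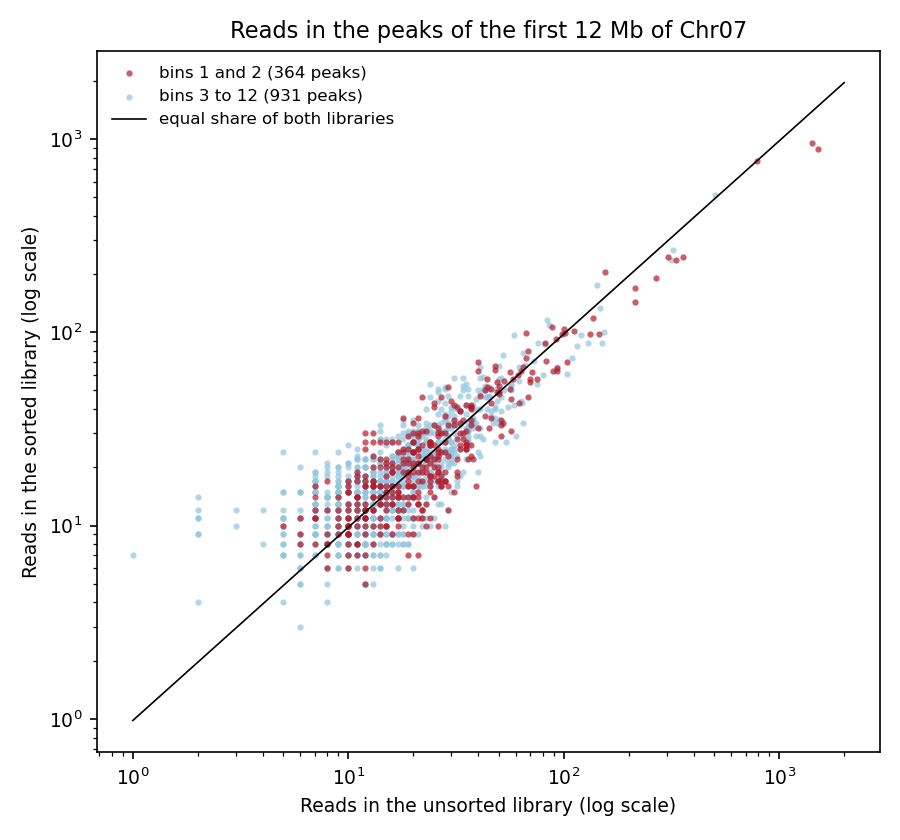
Reads of each of the 1295 members in the sorted library (vertical axis, log scale) against the unsorted library (horizontal axis, log scale). Dark red points are the 364 members of bins 1 and 2, light blue points the 931 of bins 3 to 12, and the line marks an equal share of both libraries. The members with 1507 and 1418 unsorted reads lie below the line, and those with 787 and 504 lie on it.

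Few single members met the rule for a difference of at least 2-fold. A peak was called when it had at least 20 summed reads, a scaled difference of at least 2-fold with a prior count of 0.5, and a 95% interval that excluded an equal level. Of the 1134 members with enough reads, 42 (3.70%) were called, against 5.19% of all 105380 peaks tested. The sorted library was higher in 26 of them (2.29%, against 3.53% of all peaks) and lower in 16 (1.41%, against 1.65%). With library totals each share lay below that of all peaks. The share of lower members lay above it instead with TMM factors (2.29% against 2.18%), scaling by chromosome reads (2.12% against 2.09%) and the loess correction (2.38% against 2.23%). The balance depended on scaling, with 19 higher and 26 lower under TMM factors, 22 and 18 under DESeq2 size factors, and 57 and 7 under scaling by the 5000 most covered peaks. It was 21 and 24 with scaling by the reads in chromosome peaks, and 17 and 27 after a loess correction. Counting error alone makes some 95% intervals exclude an equal level, so a called member need not differ between the libraries. Members also had more reads, with medians of 17 sorted and 17 unsorted reads against 16 and 15 over all peaks. Over chromosome peaks alone the median was 28 summed reads, against 33 for members, and 5.59% of those tested were called. What the higher coverage of members does to the share called was not tested.

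The called members were thinly covered. Of the 42, 36 had fewer than 50 summed reads and none reached 100. Most tested members were thinly covered too, since 347 of the 1134 had at least 50 summed reads, against 6 of the 42 called. At 33 summed reads, the median of the members, an interval lay above 0 only with at least 23 sorted reads (log2 ratio 1.19), and below 0 with at most 10 (-1.13). Smaller differences of a typical member were not detectable at this depth. In the last 12 Mb of chromosome 7, 48 of 1004 peaks (4.78%) were called, 30 higher and 18 lower, and in the middle of the chromosome 247 of 4281 (5.77%) were higher and 50 (1.17%) lower. The 7 other first ends had between 3.24% and 5.47% called. The 7 higher and 7 lower members of the outermost 2 Mb were 2.08% each of 336, and the following 10 Mb had 19 higher (2.38%) and 9 lower (1.13%) of 798.

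Among members with at least 50 summed reads, the highest interval bound belonged to the peak at 4670829 to 4671228, with 54 sorted and 24 unsorted reads (log2 ratio 1.18, 0.48 to 1.96). Its 12 neighbours within 50 kb had a pooled ratio of -0.0073 (-0.21 to 0.20). The peak at 1114422 to 1114821 had 46 sorted and 22 unsorted reads (1.08, 0.33 to 1.90), in a neighbourhood at -0.19. The peak at 8660552 to 8660951 had 51 sorted and 26 unsorted reads (0.99, 0.29 to 1.74), and 7 of its 8 neighbours were above 0. The peak at 11592184 to 11592583 had 58 sorted and 31 unsorted reads (0.92, 0.28 to 1.61), and 3 of its 10 neighbours were above 0.

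The last of these 5 highest lay in the eleventh bin, at 10826784 to 10827183, and its surroundings lay on the same side. It had 97 sorted and 59 unsorted reads (0.74, 0.27 to 1.24). All 8 neighbours within 50 kb were above 0, with 157 sorted and 95 unsorted reads between them (pooled log2 ratio 0.75, 0.38 to 1.14). Of these, the peak at 10842193 to 10842592 had 24 sorted and 5 unsorted reads (2.19, 0.87 to 4.04), and the next, at 10842654 to 10843053, had 15 and 5 in the same order. The peak at 10782069 to 10782468 had 24 sorted and 9 unsorted reads. Those 3 neighbours were named after their values were seen, and each was among the called members. A neighbour at 10784856 had 10 reads in each library, which lies just above 0 after scaling. The shift of -0.067 under TMM factors would put it below 0. In the eleventh bin as a whole, 59 of the 80 members with at least 20 summed reads (73.75%) were above 0. Most peaks of that bin thus lay on the same side.

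The 5 lowest by the interval bound included the peaks at 1779719 and 937505, the most covered members described above. The peak at 601330 to 601729 had 16 sorted and 39 unsorted reads (-1.23, -2.19 to -0.38), while 19 of its 31 neighbours were above 0. The peak at 4467477 to 4467876 had 88 sorted and 151 unsorted reads (-0.75, -1.14 to -0.36), and its 14 neighbours had a pooled ratio of 0.19 (-0.010 to 0.40). The peak at 7907377 to 7907776 had 29 sorted and 60 unsorted reads (-1.01, -1.71 to -0.36), and its 10 neighbours had 0.082 (-0.27 to 0.43).

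With library totals, slightly more members were higher than lower in the sorted library. Of the 1295, 637 had more sorted than unsorted reads, 562 had fewer and 96 had equal numbers. Of the 1134 with at least 20 summed reads, 640 (56.4%) had a log2 ratio above 0. That was below the 58.1% of all chromosome peaks tested, though the highest share of the 8 first ends. Chromosome 4 was level with it at 56.4%, and the lowest of the other ends, chromosome 1, had 49.6%. The last 12 Mb of chromosome 7 had 58.2% and its middle 63.6%. A peak with equal raw reads counts as above 0, since the sorted library is the smaller. The median log2 ratio of these members was 0.030, which the shift of -0.067 under TMM factors would put below 0. The lower and upper quartiles of the members' log2 ratios were -0.29 and 0.42, and their standard deviation was 0.53, the fifth of the 8 first ends, where the others ran from 0.51 to 0.56.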

How the data were processed

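Per the labels, 1 library came from sorted and 1 from unsorted cells; the deposited table gave raw counts of reads per peak over 1 merged set, made by the authors. The submitters' processing notes name, without versions or order, MACS2, featureCounts, Bowtie, Bowtie2, Trim Galore and SAMtools. Duplicate handling, read shifts, the genome build and the libraries behind each peak call are not stated there. All members were 400 bp wide.

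Members and comparisons were chosen with earlier results of these data known. Counts were scaled by library totals, with a prior count of 0.5 for single peaks and none for pooled reads. Intervals were 95% Clopper-Pearson intervals of the sorted share of reads, Wald intervals for differences between regions, exact Poisson intervals for density and order-statistic intervals for medians. With 1 library a group, p-values and a count model were not computed. A count of 0 allows up to 3 counts, which is 0.964 CPM in the sorted and 0.944 CPM in the unsorted library. Named peaks were the 5 highest and 5 lowest members by the interval bound nearest 0 with at least 50 summed reads, the 10 with the most reads, and those at the 12 Mb limit. Alternatives were TMM (edgeR 4.0.16) and DESeq2 1.42.0 size factors, scaling by other peak sets, a loess trend (limma 3.58.1, span 0.3), other limits of the end and other call rules. Computation used Python 3.11.15, NumPy 2.4.6, pandas 2.3.3, SciPy 1.17.1 and R 4.3.3.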

Additional observations from a re-analysis of the deposited data

How the results depend on the processing

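Density was 99.5 peaks per Mb over the first 15 Mb, 98.9 without the first 1 Mb and 93.1 without the first 2 Mb. Median coverage was 31 summed reads over 15 Mb, 37 with only peaks of at least 20 reads and 30 without the first 2 Mb. The log2 share ratio of the end was -0.047 over the first 10 Mb, 0.044 without the 10 most covered peaks and 0.071 without the first 2 Mb. Scaled otherwise, it was -0.092 (TMM), -0.055 (DESeq2 size factors), 0.13 with the 5000 most covered peaks and -0.081 with chromosome reads; each of these scalings adds 1 constant by construction. The difference from the last 12 Mb was -0.063 without the 10 most covered peaks of each region and 0.0070 without the first 2 Mb. That from the 7 other ends was 0.046 and 0.11 in the same order. Called members numbered 64 (57 higher, 7 lower) when scaled by the 5000 most covered peaks, and 26 were lower under TMM. They numbered 6 (3 higher, 3 lower) at 50 summed reads, 78 (49 and 29) at 1.5-fold, 4 (3 and 1) at 3-fold, 11 (8 and 3) with the 99% interval and 18 (13 and 5) with a prior count of 5. The share called among all peaks tested moved with the rule as well. Scaled by the 5000 most covered peaks, 5.64% of members and 6.96% of all peaks were called. The shares were 1.73% against 2.42% at 50 summed reads, 6.88% against 7.53% at 1.5-fold and 0.353% against 1.16% at 3-fold. They were 0.97% against 1.82% with the 99% interval and 1.59% against 2.79% with a prior count of 5. In each of these settings the share of members was the lower. The loess correction left 17 higher and 27 lower. For the other changes the cause was not tested. Leaving out the first 2 Mb and comparing within coverage classes were added after the data were seen. Of 77 recomputed values 39 stayed within the interval, or for counts within 1.5 times, of the reported one. No paired analysis was possible because there was only 1 library per group. Depth limits single members, whose median was 33 summed reads.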

Other observations

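Very few unsorted reads were more common among members than very few sorted reads, but the counts were small. Of the members, 4 had at most 4 sorted reads and 12 had at most 4 unsorted reads, which is 0.309% and 0.927% of 1295. None of these lay in the outermost 2 Mb. In the last 12 Mb of chromosome 7 the numbers were 8 and 15 of 1158, in the same order, and in the 7 other first ends they were 55 and 62 of 10272. Over all peaks they were 1375 and 1706 of 124349. These counts were chosen after the values were seen, and whether they differ by more than counting error was not tested.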
